A study of Mus musculus with 12 samples.

Results

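The clustered protocadherin genes lie in 3 arrays, alpha, beta and gamma, on mouse chromosome 18. They were taken from the GENCODE vM1 annotation of the mm9 assembly as all genes on that chromosome whose symbol begins with Pcdha, Pcdhb or Pcdhg followed by a letter or number. This gave 25 of the 22381 genes examined, which were the protein-coding genes and these members, namely 2 alpha genes (Pcdha3 and Pcdha11), 22 beta genes (Pcdhb1 to Pcdhb22, of which Pcdhb20 is a pseudogene) and 1 gamma gene (Pcdhgc5). In this annotation most alternative first exons of the alpha array are transcripts of Pcdha11, and those of the gamma array are transcripts of Pcdhgc5. Each distinct transcription start was therefore also examined by itself, which gave 41 of the 40636 starts of those genes: 10 alpha, 22 beta and 9 gamma. A start is named here by the transcript whose first exon was taken there, such as Pcdhgc5-205, and a beta gene, which has 1 start, by its symbol. All 41 starts are on the plus strand, from chr18:37089939 (Pcdha11-204) to chr18:37979200 (Pcdhgc5-209). Pcdhgc5 is the only C-type isoform that gives its name to a gene there, and that gene begins at the most upstream gamma start, so no C-type isoform was assigned to a start.

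DNA methylation was measured by enhanced reduced representation bisulfite sequencing (ERRBS), in which MspI cuts DNA at CCGG sites and bisulfite treatment lets sequencing tell methylated from unmethylated cytosines. The 12 samples were oral soft tissue of female B6C3F1/J mice that were 8 weeks old at the start, namely the mucosa of the cheek, the floor of the mouth and soft tissue from the hard palate, pooled for DNA. The 4 groups of 3 samples received the vehicle DMSO, DBP, DBP with an unnamed chemopreventive agent, or DBP with a chemopreventive agent called BR extract. DBP is dibenzo[a,l]pyrene, also named dibenzo[def,p]chrysene, a carcinogenic polycyclic aromatic hydrocarbon of tobacco smoke. It was applied topically in the mouth at 24 nmol an application, with 3 applications a week over 5 weeks, and tissue was taken 48 h after the last dose. The dose and route of the agent and of BR extract are not given in the labels. Nothing in the labels says that the samples of a group came from separate animals, so p-values measure only the spread between these samples.

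Clustered protocadherins are adhesion proteins of the cell surface. In neurons each cell picks a small set of the alternative promoters of these arrays, and the resulting mixture of isoforms lets a cell tell its own branches from those of its neighbours. In the alpha and gamma arrays each variable first exon carries its own promoter and is spliced to constant exons shared by the array, whereas each beta gene is a single-exon gene of its own. Most of the promoters carry binding sites for CTCF, which with cohesin brings a promoter to its enhancer. Methylation of a promoter and first exon is known to go with its silence. The C-type isoforms sit at the downstream ends of the alpha and gamma arrays and are known to be chosen more uniformly than the others.

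The depth differed between groups. The files held 3287367 to 7774032 CpG calls per DMSO sample, 7515975 to 7974299 per DBP sample, 16908728 to 39615620 per DBP + agent sample and 17712547 to 78889043 per DBP + BR extract sample. At the members' positions this left 2370 to 4597, 4336 to 4510, 10991 to 19516 and 14833 to 31754 reads per sample in the same order. Every DMSO and DBP sample was shallower than every DBP + agent and DBP + BR extract sample, so depth cannot be told apart from group in comparisons between these pairs of groups, while the depths overlapped within each pair. The deepest library, DBP + BR extract sample 1, also had the lowest share of methylated calls over all CpGs, 29.3%, and the results named here that moved by over 1.5 times without it are given with and without it.

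Methylated and unmethylated reads were summed over 1000 bp on either side of a start (a window) and, apart, over the first exon, and the level is the percent of these reads that were methylated. Levels are given for starts with 20 or more reads in every one of the 12 samples. That held for 11 of 41 windows (2 alpha, 2 beta, 7 gamma) and for 18 of 41 first exons (4 alpha, 5 beta, 9 gamma), and for all windows tested it held for 13142 of 40636. By the gene start alone it held for 3 windows (Pcdhb1, Pcdhb2 and Pcdhgc5) and 7 first exons. The first exons were long, 2795 bp at the median, so they reached well past the windows.

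The first exons of the 3 arrays stood at different levels, and the order was the same in all 12 samples. The 5 beta first exons averaged 72.3% ± 3.66 (SD, n = 12 samples), the 4 alpha first exons 47.3% ± 2.93 and the 9 gamma first exons 38.3% ± 1.93. Beta was above alpha by 25.1 ± 3.57 percentage points and alpha above gamma by 8.98 ± 2.71 points (SD over samples). The alpha average depended on the starts that entered, with 52.6% where 10 reads sufficed and 35.3% where all reads of the array were pooled. The arrays were also read at unlike distances from the start, and the averages were not matched for distance. Pcdhb5 and Pcdhb22 had enough reads only at 1500 to 2500 bp and Pcdhb17 only at 1000 to 1500 bp. Pcdha11-202 had them only up to 1000 bp. At 1500 to 2500 bp Pcdhb5 and Pcdhb22 stood at 73.0 and 76.5%, beside 71.2% at Pcdha11-204 and 65.5% at Pcdha11-208. How far the order goes with distance was not tested. In the windows beta again stood highest, at 59.6% ± 7.90, but gamma, at 31.1% ± 2.31, stood above alpha, at 13.4% ± 2.39. Without DBP + BR extract sample 1 the alpha windows averaged 26.7%, because 1 more start then had enough reads. The only alpha windows read deeply enough in all 12 samples were those of Pcdha11-201 and Pcdha11-202, the last 2 starts of the array.

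**Figure D1:**
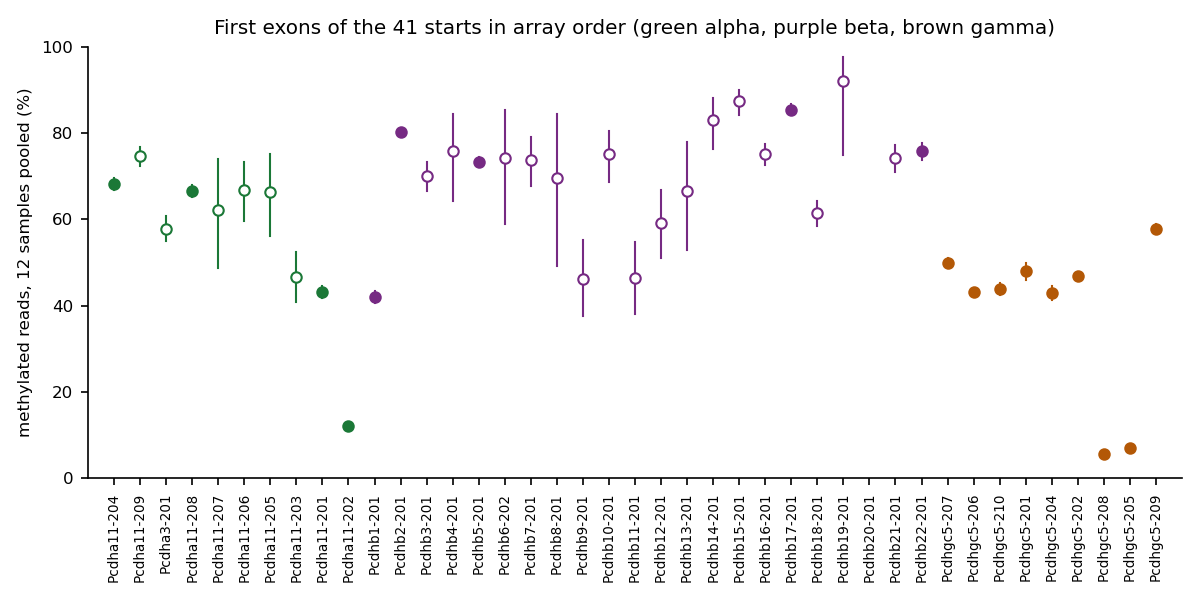
Percent of methylated reads in the first exon of each of the 41 starts, with the 12 samples pooled, in the order of the arrays along the chromosome. Bars are 95% Wilson intervals (counting error only), filled circles are starts with 20 or more reads in every sample, open circles are starts with fewer, and Pcdhb20, with 19 reads in all, is not drawn. The downstream starts Pcdha11-202, Pcdhgc5-208 and Pcdhgc5-205 lie at 12.1%, 5.62% and 6.92%, far below the rest. Exons were read at unlike distances from the start, and Pcdhgc5-205 had enough reads only in its first 500 bp.

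Within the alpha array the level was lower at the downstream than at the upstream end. Pcdha11-204, the most upstream start, stood at 66.3% ± 7.01 in its first exon (SD, n = 12; 56.1 to 82.1%) and Pcdha11-208 at 65.3% ± 9.05 (57.7 to 87.8%). The next to last start, Pcdha11-201, stood at 45.9% ± 7.21, and the last, Pcdha11-202, at 11.4% ± 2.36. Pcdha11-202 was the lowest alpha first exon in every sample: it read 10.2, 11.0 and 11.9% in DMSO, 10.7, 9.39 and 12.3% in DBP, 15.8, 11.8 and 10.5% in DBP + agent and 14.7, 6.61 and 11.9% in DBP + BR extract. The groups overlapped throughout, and the highest and lowest of these values came from treated samples. The 6 alpha first exons read too shallowly in single samples were, over the 12 samples pooled, 74.7% methylated at Pcdha11-209, 57.9% at Pcdha3, 62.3% at Pcdha11-207, 66.9% at Pcdha11-206, 66.3% at Pcdha11-205 and 46.6% at Pcdha11-203. All 6 lie upstream of Pcdha11-201, and all 6 were above its pooled level of 43.1%. The Wilson interval of Pcdha11-203, 40.8 to 52.5%, included that level, however, and Pcdha11-207 rested on 53 reads in all.

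The beta first exons were the most methylated of the arrays. Pcdhb17 was highest, at 87.3% ± 5.28 (75.3 to 93.8%), followed by Pcdhb2 at 81.8% ± 5.88 (67.2 to 88.8%), Pcdhb22 at 76.3% ± 11.9 (51.9 to 93.5%) and Pcdhb5 at 72.8% ± 7.21. Both Pcdhb17 and Pcdhb2 had their lowest value in DBP + BR extract sample 1. Pcdhb1, the most upstream beta gene, was lower, at 43.3% ± 12.0 (25 to 66.7%). It alone among the beta first exons had enough reads in its first 500 bp, which stood at 16.7%. At 500 to 1000 bp Pcdhb1 stood at 82.9%, beside 85.0% at Pcdhb2. The mean of Pcdhb1 is thus not compared with the others over like sequence. The 3 DMSO samples of Pcdhb1 read 37.5, 25 and 66.7% and its 3 DBP samples 62.8, 47.9 and 27.8%, from 39 to 142 reads each. In the deeper DBP + agent and DBP + BR extract samples, with 231 to 2029 reads, Pcdhb1 stayed between 38.9 and 44.2%. Of the other 17 beta genes, Pcdhb20 had fewer than 20 reads over the 12 samples, and 16 first exons had pooled levels from 46.2% (Pcdhb9) to 92.0% (Pcdhb19, 25 reads). Besides Pcdhb9, only Pcdhb11, at 46.3%, had a pooled level under 50% among these 16.

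The gamma array held a run of first exons at intermediate levels, followed by low ones. The first 6 starts lay within a few points of each other: Pcdhgc5-207 at 49.4% ± 5.44, Pcdhgc5-206 at 42.3% ± 4.84, Pcdhgc5-210 at 42.9% ± 7.0, Pcdhgc5-201 at 45.9% ± 9.77, Pcdhgc5-204 at 44.4% ± 4.32 and Pcdhgc5-202 at 46.9% ± 7.37 (SD, n = 12). The next 2 starts were nearly unmethylated where they were read. Pcdhgc5-208 read 5.63, 8.12 and 9.70% in DMSO, 5.10, 7.46 and 6.07% in DBP, 5.13, 8.48 and 6.02% in DBP + agent and 3.13, 7.17 and 8.68% in DBP + BR extract. Pcdhgc5-205 stood at 8.51% ± 4.49 (1.67 to 18.1%). By distance, this exon had enough reads only in its first 500 bp, at 7.44% ± 4.48. At that distance Pcdhgc5-201 stood at 11.3% and Pcdhb1 at 16.7%, so the Pcdhgc5-205 exon is not compared with the others over like sequence. The last start, Pcdhgc5-209, returned to 57.3% ± 7.24, the highest mean of the gamma array, although Pcdhgc5-207 did not lie beyond the spread of the difference. Neighbours in the order of levels among these 18 first exons mostly did not differ beyond their spread: of the 17 steps, the difference exceeded 1 SD over samples only from Pcdha11-202 to Pcdhgc5-206, by 30.9 points, and from Pcdhb2 to Pcdhb17, by 5.51 points.

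**Figure D2:**
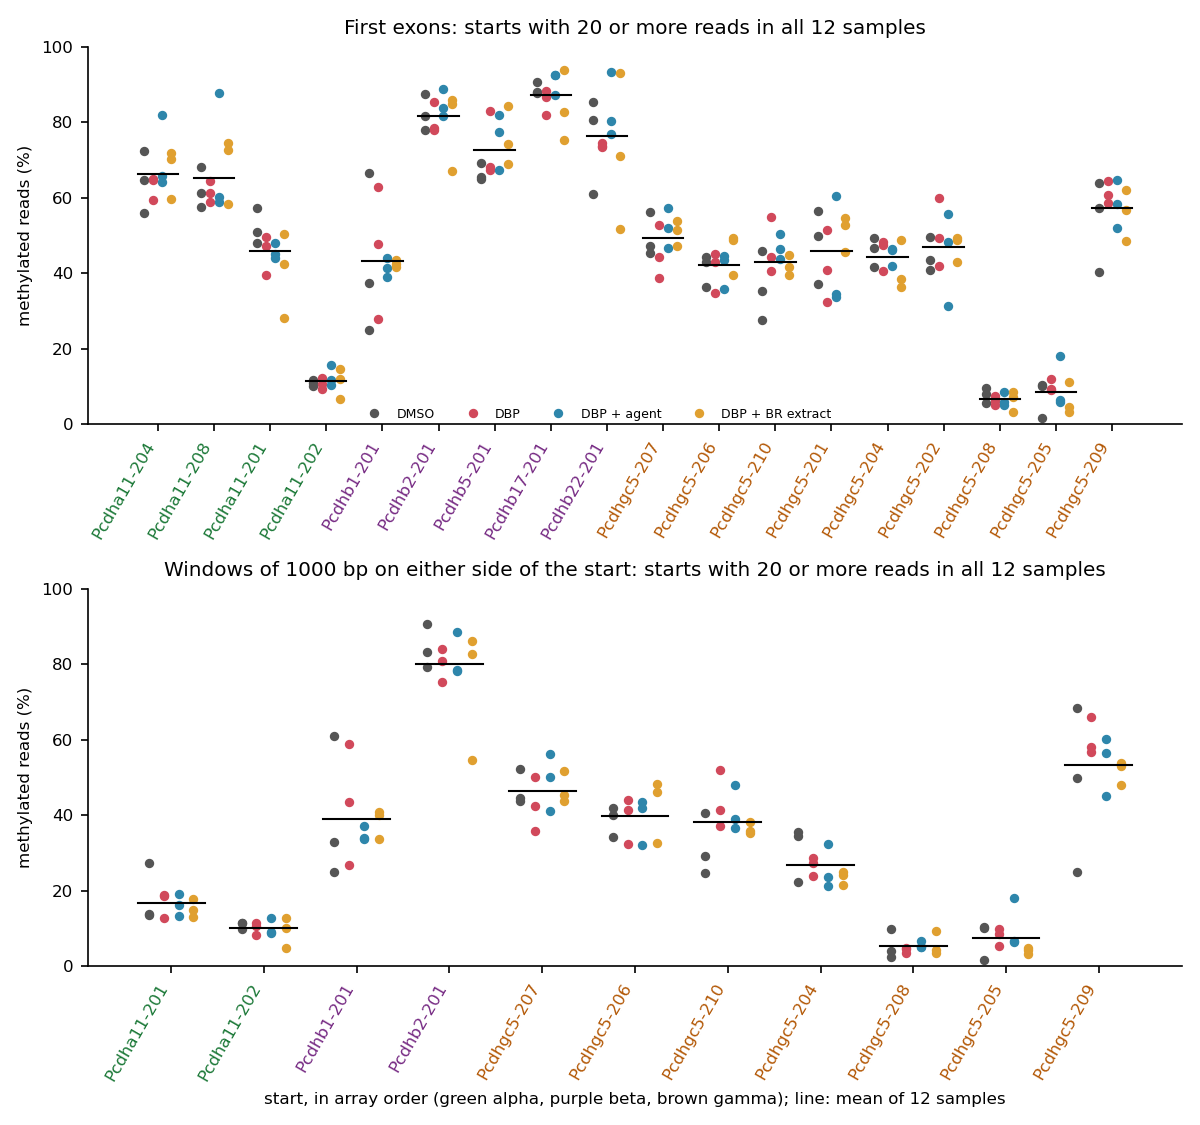
Percent of methylated reads per sample in first exons (top) and in windows of 1000 bp on either side of the start (bottom), for the starts with 20 or more reads in all 12 samples, in array order. Points are samples coloured by group and lines are means of 12 samples. Colours mix at nearly every start, while Pcdha11-202, Pcdhgc5-208 and Pcdhgc5-205 stay under 20% in all 12 samples.

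The alpha and gamma starts were also split by place in the array, a choice made after the values were seen. The 2 deeply read starts among the first 8 alpha starts averaged 65.8% and the last 2 alpha starts 28.7%. The first 6 gamma starts averaged 45.3% and the last 3 gamma starts 24.2%. The last 3 gamma starts include Pcdhgc5-209, which had the highest mean of the array.

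The intermediate levels of the gamma starts were also those of their single CpGs. Among CpGs with 10 or more reads in at least 6 samples, 58 of 71 in the first 6 gamma starts (81.7%) had a mean level between 20 and 80%. The upstream alpha starts were alike, with 21 of 26 CpGs (80.8%) in that range. In the last 3 gamma starts 25 of 39 CpGs (64.1%) were under 20%, and in the last 2 alpha starts 22 of 38 (57.9%). Pcdhgc5-208 had 21 of its 25 CpGs under 20%, with a median CpG at 0.0391%, and Pcdha11-202 had 19 of 24 under 20%, with a median of 2.43%. In the beta genes 16 of 30 CpGs (53.3%) were over 80%. Pooled reads do not show whether a level between these limits comes from part of the cells or from part of the alleles.

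The level was also higher with distance from the start in most members read at several distances. In Pcdhb1 the first 500 bp after the start stood at 16.7% ± 6.25 (n = 10 samples with 20 or more reads), and the next 500 bp at 82.9% ± 4.71 (n = 9). In Pcdhgc5-201 the first 500 bp stood at 11.3% ± 9.23 (n = 6), and the stretch from 1000 to 1500 bp at 66.8% ± 12.9 (n = 9). At 1000 to 1500 bp further gamma starts stood above their first 500 bp, Pcdhgc5-207 at 80.3% against 44.9%, Pcdhgc5-206 at 63.7% against 40.2%, Pcdhgc5-210 at 58.7% against 34.5% and Pcdhgc5-204 at 69.6% against 27.4%. Pcdhgc5-201 and Pcdhgc5-204 were lower again at 1500 to 2500 bp, at 43.3 and 50.5%. Pcdhgc5-209 went from 51.5% in its first 500 bp to 76.9% at 1500 to 2500 bp. Pcdhgc5-208 remained low over its whole first exon, from 2.97% ± 1.95 in the first 500 bp to 13.0% ± 7.81 at 1500 to 2500 bp. Pcdha11-201 stood at 9.46% in the 500 bp before its start and at 51.8% at 1500 to 2500 bp after it. Pcdhb2 was not higher farther on, with 85.0% at 500 to 1000 bp and 73.7% at 1500 to 2500 bp. A window and a first exon cover different sequence, and their levels could differ: Pcdha11-201 averaged 16.7% ± 4.19 in the window and 45.9% in the exon, and Pcdhgc5-204 26.7% ± 5.00 against 44.4%.

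**Figure D3:**
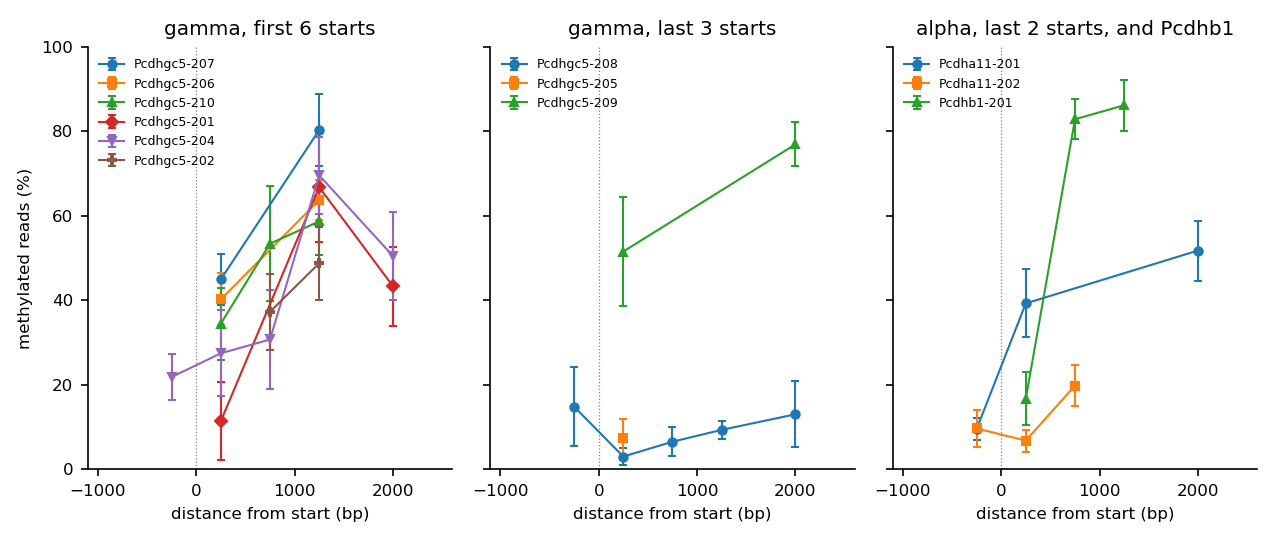
Percent of methylated reads (mean, bars SD over samples with 20 or more reads) by distance from the start in bp, for 6 gamma starts (left), the last 3 gamma starts (middle) and the last 2 alpha starts with Pcdhb1 (right). Pcdhb1 goes from 16.7% to 82.9% within 1000 bp, whereas Pcdhgc5-208 stays at or under 14.8% on average from 500 bp before its start to 2500 bp after it.

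The constant exons of the gamma array, which all gamma transcripts share, could be read in every sample, with 29 to 229 reads over 3 exons. Their level ran from 3.45% in DBP sample 2 to 34.1% in DMSO sample 2, with the groups overlapping. The alpha constant exons had 20 or more reads in 1 sample only.

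Intermediate levels made up a larger share of the members than of all starts read. Of the 18 first exons, 13 (72.2%) had a mean level between 20 and 80%, against 8.29% of all 6065 first exons read as deeply. Of the 11 windows, 6 (54.5%) lay in that range, against 10.3% of all 13142 windows. The median first exon level was 46.4% in the members and 5.13% over all, and the median window level 38.2% and 6.36%. The first exons of the members were 2795 bp long at the median, and the length of all first exons is not given. First exons were not matched for length or for distance from the start. How far their shares and medians go with either was not tested. These are descriptions, since the members share their arrays and are not independent, and no test was made.

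Over all windows the level went with CpG content, and the members were set beside windows of like content. The 41 member windows held 1.90 CpGs per 100 bp at the median, against 1.65 over all windows, and the beta windows 1.47. At 2 to 3 CpGs per 100 bp the 3 members read, Pcdhgc5-207, Pcdhgc5-210 and Pcdhb1, stood between 38.2 and 46.5%. That was inside the middle range of all such windows (quartiles 7.82 and 61.7%) but above their median of 14.2%. At 3 to 4 CpGs per 100 bp the upper quartile of all windows was 11.6%, and Pcdhgc5-206 at 39.9% ± 5.62, Pcdhgc5-204 at 26.7% and Pcdha11-201 at 16.7% were above it. In the same range Pcdhgc5-205, at 7.46% ± 4.38, was near the median of all windows, 7.29%. At 4 to 6 CpGs per 100 bp Pcdhgc5-208 stood at 5.25% ± 2.25 and Pcdha11-202 at 10.1% ± 2.18, beside a median of 5.91% and an upper quartile of 8.01% over all windows of that content, so that Pcdha11-202 was above the middle range. At 1 to 2 CpGs per 100 bp Pcdhgc5-209, at 53.5% ± 11.3, and Pcdhb2, at 80.2% ± 9.18, were inside the middle range (quartiles 31.0 and 86.4%), below and above the median of 70.4%.

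**Figure D4:**
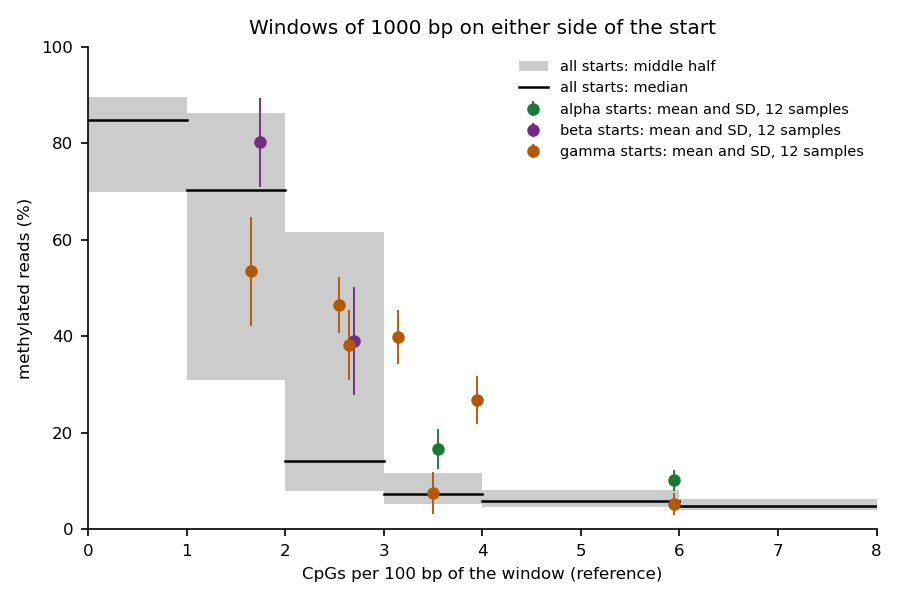
Level of the 11 member windows (points, mean and SD of 12 samples) against CpGs per 100 bp of reference sequence, over the middle range (grey, between quartiles) and median (black line) of all 13142 windows in each class of CpG content. Pcdhgc5-206 (39.9%) and Pcdhgc5-204 (26.7%) lie above the grey band of their class, and Pcdhgc5-205 (7.46%) and Pcdhgc5-208 (5.25%) lie in theirs.

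The pattern over members was similar from sample to sample. The SD between the 18 first exons was 23.6 points, whereas the median SD of a first exon between samples was 7.01 points and the part of it that read counting gives was 2.95 points. For all 18 first exons and all 11 windows the SD between samples exceeded that of counting. Over the 66 pairs of samples, Spearman's rho of the 18 first exon levels ran from 0.662 to 0.953, with a median of 0.864. Across the 12 samples the first exons whose levels moved most alike were Pcdha11-201 and Pcdhb2 (Pearson r = 0.802 over 12 samples), both lowest in DBP + BR extract sample 1. Without that sample r was 0.498 over 11 samples. In the windows they were Pcdha11-202 and Pcdhgc5-206 (r = 0.737, and 0.688 without that sample). These correlations share library and depth and are given as description. DBP + BR extract sample 1 gave the lowest of the 12 values in 4 of 18 first exons and in 1 of 11 windows, and DBP + agent sample 3 the highest in 5 first exons.

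The question of the design is whether DBP changed methylation and whether the 2 chemopreventive treatments shifted it. No clustered protocadherin start passed the test in any of the 6 comparisons between groups. edgeR's quasi-likelihood test on the read counts, with all 12 samples in 1 fit and Benjamini-Hochberg adjustment over all units, called 0 of the 11 windows and 0 of the 18 first exons at an adjusted p under 0.05. It called 0% of all 13142 windows and 0% of all 6054 first exons in each of these comparisons too, so the count of 0 is no result about the members. The same held for the genes' own starts, with 0 of 3 windows and 0 of 7 first exons called, beside 0% of 10508 windows and 0% of 5011 first exons. The test of any difference among the 4 groups called 0 members as well. At an unadjusted p under 0.05, 1 window passed in 1 comparison, Pcdhgc5-205 in DBP + BR extract against DBP + agent, and no first exon passed. Over all windows, 2.94, 2.2, 3.92, 3.78, 7.16 and 5.53% had such a p in DBP against DMSO, DBP + agent against DBP, DBP + BR extract against DBP, DBP + agent against DMSO, DBP + BR extract against DMSO and DBP + BR extract against DBP + agent, and over all first exons 2.08, 2.4, 4.29, 3.04, 5.65 and 6.05%. In the test of any difference the smallest unadjusted p of a member was 0.199 (Pcdhgc5-205 window), beside 3.56% of all windows and 3.68% of all first exons with a p under 0.05. limma called 0 members in all comparisons, beside at most 1 first exon of the genome (0.0165% of those of all starts and 0.02% of those of gene starts).

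DBP and DMSO samples overlapped in all 11 windows and all 18 first exons, and over all units 10.6% of windows and 10.1% of first exons had groups that did not overlap. The largest differences were in gamma starts. The Pcdhgc5-210 window read 29.3, 40.7 and 24.8% in DMSO and 52.1, 37.1 and 41.5% in DBP, so that DBP sample 2 fell below DMSO sample 2. The difference was 11.9 points (SE 6.5), a log2 odds ratio of 0.75, with p = 0.0967 and adjusted p = 1.00 in edgeR and an exact permutation p = 0.2. In its first exon the difference was 10.3 points (SE 6.87; adjusted p = 1.00 in edgeR). The Pcdhgc5-209 window read 50.0, 68.5 and 25% in DMSO and 58.0, 66.2 and 56.8% in DBP, and its difference of 12.5 points (SE 12.9; adjusted p = 1.00 in edgeR) included DMSO sample 3, the lowest of the 12. The median difference was -0.883 points over the 11 windows and -0.630 points over the 18 first exons, against -0.233 and -0.0627 points over all units. Most other units lay at lower levels with less spread. All windows had a median level of 6.36% and a median SD between samples of 2.30 points, the member windows 38.2% and 5.62 points. Median differences in points are thus not on a like scale, here or in the comparisons below.

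In DBP + agent against DBP, the median difference was -0.136 points in the windows and 0.800 points in the first exons, of which 13 of 18 were higher with the agent, against 0.160 and 0.122 points over all units. The groups did not overlap in 1 of 11 windows, beside 9.12% of all windows, and in 1 of 18 first exons, beside 8.76% of all first exons. The first exon was that of Pcdhb22, at 77.0, 80.5 and 93.5% in DBP + agent and 74.7, 73.5 and 73.7% in DBP, a difference of 9.70 points (SE 5.02; adjusted p = 1.00 in edgeR). The window was that of Pcdhgc5-208, at 5.13, 5.11 and 6.73% against 3.41, 4.76 and 4.71%, a difference of 1.36 points. Pcdhb17 was higher by 5.05 points in its first exon (SE 2.66; adjusted p = 1.00 in edgeR), but the difference was -1.20 points where only CpGs read in all 12 samples were counted.

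In DBP + BR extract against DBP, 8 of 11 windows and 10 of 18 first exons were lower with the extract, with median differences of -3.04 and -1.55 points, against -0.366 and -0.362 points over all units. Members and all units differed in level and spread, and the share of all units that were lower is not given. A stronger shift in the members was not tested. The groups did not overlap in 2 of 11 windows, Pcdhgc5-205 and Pcdhgc5-209, beside 10.1% of all windows, and in 0 of 18 first exons, beside 10.5% of all. Pcdhgc5-209 read 48.1, 53.1 and 53.9% with the extract and 58.0, 66.2 and 56.8% without, a difference of -8.63 points (SE 3.45; exact permutation p = 0.1, the smallest that 3 against 3 samples allow; edgeR p = 0.379). The largest positive difference was that of the Pcdhgc5-201 first exon, by 9.39 points (SE 6.17; adjusted p = 1.00 in edgeR).

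Both chemopreventive groups were also set against DMSO. In DBP + agent against DMSO no member's groups were separate, beside 10.1% of all windows and 9.43% of all first exons. The Pcdhgc5-210 first exon was higher by 10.5 points (SE 5.68; adjusted p = 1.00 in edgeR) and that of Pcdhb5 by 9.11 points (SE 4.55; adjusted p = 1.00 in edgeR), or by 5.92 points without DBP + agent sample 2. In DBP + BR extract against DMSO again 0 members were separate, beside 11.4% of windows and 10.9% of first exons. The Pcdha11-201 first exon read 48.0, 57.4 and 50.9% in DMSO and 28.2, 50.5 and 42.6% with DBP + BR extract. Its difference of -11.6 points (SE 7.10; adjusted p = 0.916 in edgeR) was -5.52 points without DBP + BR extract sample 1. The Pcdhb2 window likewise differed by -9.83 points (SE 10.5; adjusted p = 0.82 in edgeR), which became 0.0957 points without that sample, whose value of 54.7% was the lowest of the 12. Pcdhb5 was higher in its first exon by 9.32 points (SE 4.74; adjusted p = 0.925 in edgeR), or by 5.06 points without DBP + BR extract sample 1.

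The comparison of the 2 chemopreventive groups with each other had the most reads. The median difference, DBP + BR extract minus DBP + agent, was -2.12 points in the windows, of which 9 of 11 were lower, and -2.08 points in the first exons, of which 13 of 18 were lower, against -0.531 and -0.502 points over all units. The same limits of level and spread hold here, and the share of all units that were lower is not given. The groups did not overlap in 1 of 11 windows, beside 9.41% of all, and in 0 of 18 first exons, beside 10.1%. The window was that of Pcdhgc5-205, which read 4.38, 3.33 and 4.81% with BR extract and 6.59, 18.1 and 6.43% with the agent. The difference was -6.21 points (SE 3.90), a log2 odds ratio of -1.26, with p = 0.0377 and adjusted p = 0.873 in edgeR and an exact permutation p = 0.1. Without DBP + agent sample 2, the 18.1% value, it was -2.33 points. In the first exon of Pcdhgc5-205 the groups overlapped, and the difference of -3.78 points became 0.234 points without that sample. The Pcdhb17 first exon differed by -6.83 points (SE 5.70; adjusted p = 0.877 in edgeR), which was -2.48 points without DBP + BR extract sample 1 and 1.76 points over CpGs read in all 12 samples. That of Pcdhb22, at 71.2, 93.2 and 51.9% against 77.0, 80.5 and 93.5%, differed by -11.6 points (SE 13.0; adjusted p = 0.911 in edgeR).

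**Figure D5:**
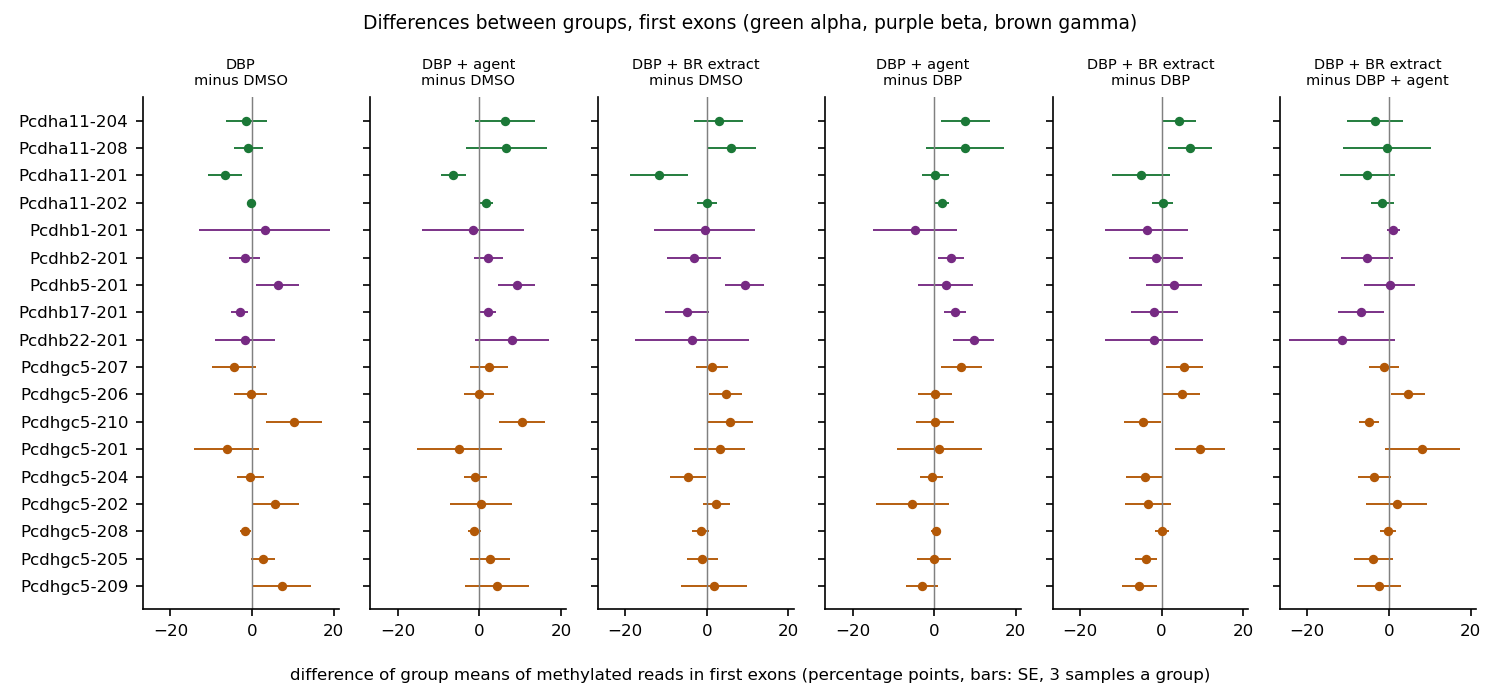
Differences between group means of the percent of methylated reads in the 18 first exons (points, in percentage points; bars, SE from 3 samples a group), 1 panel per comparison. Differences lie on both sides of 0 in each panel, from -11.6 points (Pcdha11-201, DBP + BR extract minus DMSO, and Pcdhb22, DBP + BR extract minus DBP + agent) to 10.5 points (Pcdhgc5-210, DBP + agent minus DMSO), and none passed the test.

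Logistic regression of pooled reads on group, which takes the reads as independent and leaves out the spread between samples, gave other counts. For the windows of the 11 starts it called 1 member in DBP against DMSO (4.04% of all windows called), 1 in DBP + agent against DBP (10.5%), 2 in DBP + BR extract against DBP (24.1%), 1 in DBP + agent against DMSO (11.3%), 2 in DBP + BR extract against DMSO (25.5%) and 4 in DBP + BR extract against DBP + agent (55.4%). For the 18 first exons it called 1, 3, 6, 4, 3 and 12 members in the same order, beside 3.63%, 10.6%, 20.6%, 9.89%, 19.5% and 49.8% of all first exons. Its share of all units called was highest between the 2 deepest groups. For the Pcdha11-201 first exon in DBP + BR extract against DMSO it gave an unadjusted p of 1.48e-10, where edgeR gave 0.123 and the exact permutation test 0.2.

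Single CpGs of the arrays were tested with the thresholds of the study, a logistic regression per CpG, q under 0.01 and a difference of pooled percentages over 25 points. In DBP against DMSO 0 of 43 CpGs passed, beside 0.0578% of all 53618 CpGs, with 6 member CpGs at an unadjusted p under 0.05 in the regression, beside 10.8% of all CpGs. In DBP + agent against DBP 3 of 91 passed (0.754% of all), in DBP + BR extract against DBP 1 of 79 (1.01%), in DBP + agent against DMSO 1 of 56 (0.93%), in DBP + BR extract against DMSO 1 of 45 (1.21%) and in DBP + BR extract against DBP + agent 5 of 171 (1.61%). With the spread between samples in the model, edgeR called 0 of 43, 80, 73, 55, 43 and 156 member CpGs in DBP against DMSO, DBP + agent against DBP, DBP + BR extract against DBP, DBP + agent against DMSO, DBP + BR extract against DMSO and DBP + BR extract against DBP + agent, beside 0%, 0.0011%, 0%, 0%, 0% and 0% of all CpGs. At an unadjusted p under 0.05 it had 1, 2, 4, 2, 1 and 10 member CpGs in that order, beside 3.62%, 4.49%, 4.84%, 4.2%, 4.77% and 5.11% of all CpGs. The member shares called by the regression were not tested against those of all CpGs.

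The CpG at chr18:37981710 (mm9), 2510 bp after the start in the first exon of Pcdhgc5-209, had the smallest p. It read 44.8, 40.0 and 68.4% in DBP + agent, from 19 to 35 reads, and 0, 8.33 and 0% in DBP + BR extract, from 12 to 17 reads. The 2 groups were fully apart, at 51.1% ± 15.2 and 2.78% ± 4.81 (SD, n = 3), and the regression gave an adjusted p of 1.07e-10 where edgeR gave 0.769. The CpGs named were chosen by p in these same samples, so groups that are apart there add no support. The share of all CpGs with groups apart is not given. The zeros rest on 14 and 17 reads, so that counting alone allows up to 3 reads of each. In the DMSO and DBP samples this CpG had 4 to 10 reads, with values from 20 to 100%.

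The CpG at chr18:37114609, 2189 bp after the start in the first exon of Pcdha11-208, passed in both comparisons with DBP. It read 62.9, 50.0 and 50.0% in DBP, 79.4, 100 and 100% in DBP + agent and 100, 82.5 and 69.6% in DBP + BR extract. All 6 samples with a chemopreventive treatment were above the 3 DBP samples, in a CpG chosen by its p in these samples. The DBP values rest on 14 to 35 reads. DMSO samples 1 and 2 read 52.6 and 71.4%, and DMSO sample 3 read 66.7% from only 9 reads. The adjusted p in edgeR was 0.960 for the agent and 0.941 for BR extract. Both comparisons share the 3 DBP samples.

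The other 3 CpGs named had groups that overlapped or leaned on single samples. At chr18:37885580, 220 bp after the start of Pcdhgc5-206, DMSO read 31.3, 66.7 and 66.7% and DBP + BR extract 35.0, 42.5 and 15.5% (adjusted p = 0.959 in edgeR). At chr18:37250036, 246 bp after the start of Pcdha11-201, DBP + agent read 66.7, 17.1 and 21.1% and DBP + BR extract 51.4, 69.2 and 66.7% (adjusted p = 0.937 in edgeR). At chr18:37926429 in the first exon of Pcdhgc5-202, DBP + agent read 62.7, 0 and 6.56% and DBP 60, 38.9 and 51.7% (adjusted p = 0.960 in edgeR).

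By array, the group means of the first exons lay close together. Alpha averaged 47.5% ± 4.32 in DMSO, 45.2% ± 1.86 in DBP, 49.5% ± 3.15 in DBP + agent and 46.8% ± 0.880 in DBP + BR extract (SD, n = 3). Beta averaged 71.3% ± 2.24, 71.9% ± 4.63, 75.3% ± 0.880 and 70.8% ± 5.30 in the same order. Gamma averaged 37.2% ± 2.40, 38.7% ± 1.11, 38.7% ± 2.76 and 38.5% ± 1.87. No p is given for these averages, since the members were chosen with results of these data known.

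Other genes of the family and its regulators were read as gene start windows. Of the 12 non-clustered protocadherins, which are single genes spread over the genome, 7 were read deeply enough, and they had a median level of 7.09%, from 4.34% (Pcdh1) to 31.6% (Pcdh19, an X-linked gene). Of 19 genes that act on the arrays, such as Ctcf, the cohesin subunit genes Rad21 and Smc3, and the DNA methyltransferase and Tet genes, 13 were read, with a median of 4.41%. Among these, the X-linked cohesin subunit genes Stag2 and Smc1a stood at 28.1% and 25.6%. edgeR called 0 genes of either list in the 6 comparisons, beside 0% of all 10508 gene start windows, so this count is no result about these genes. Of the markers of cell types the tissue could hold, few windows were read: 1 of 6 for squamous epithelium (Krt4, at 88.5% ± 5.91), 2 of 6 for skeletal muscle, 2 of 4 for neurons and 0 for fibroblasts, immune cells and endothelium. They were levels of DNA methylation and not of expression, and the makeup of the tissue in each group was not tested.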

How the data were processed

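ERRBS was done on 12 oral tissue samples, 3 per group, and groups and sample numbers came from the labels. Per the submitters' processing notes and the study's methods, the authors trimmed reads with Trim Galore 0.3.3 and used Bismark 0.10.1 for alignment to mm9 and for methylation calls. They deposited, for each CpG cytosine and strand, the count of methylated and of unmethylated reads, without a filter, and the percent methylated, which was not used further because it equals the value from the counts. Duplicate reads cannot be recognised in these counts. All 5202461 positions were CpGs of the reference.

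Genes and starts came from GENCODE vM1 for mm9. Members and gene lists were chosen with earlier results of these data known. Starts of a gene under 1000 bp apart were joined at the first, and the longest first exon among them was taken, so that an exon can begin after its start. The use of every distinct start as a unit was added after the annotation was seen, and the averages of the arrays are means over starts. Reads were summed per unit and sample, and units with 20 or more reads in every sample were tested. In R 4.3.3, edgeR 4.0.16 (quasi-likelihood F test on both counts, with an effect per sample) compared the 4 groups in 1 fit without covariates, in 6 contrasts and a test of any difference, with Benjamini-Hochberg adjustment over all units tested. Units with no read of 1 kind in any sample were left out of the fit. Differences are between means of sample percentages, with an SE from the SDs of both groups. Exact permutation tests were two-sided.

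Single CpGs were tested in Python 3.11.15 (numpy 2.4.6, scipy 1.17.1, pandas 2.3.3) with the study's parameters: 10 or more reads, none above the 99.9th percentile of coverage, coverage scaled to the highest median, strands merged, presence in all 6 samples, and a likelihood ratio test. Figures were drawn with matplotlib 3.10.9. The programs were tested on simulated data. Intervals are 95% Wilson intervals, and both these and the limit of 3 reads for a value of 0 cover counting error only, because reads amplified by PCR and carrying no molecular identifier can be copies of 1 molecule.

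The members named were, by rule, those called in edgeR, Pcdhgc5 and the other C-type genes where annotated, the 2 highest and the 2 lowest members of each array by mean level, the 2 with the smallest p in each comparison, and up to 5 CpGs past the thresholds by p. Further members are given so that all are accounted for. Alternatives changed the minimum of reads (10 or 50), the test (limma 3.58.1 on log2 of both counts plus 1, or logistic regression), the samples in the fit, the block, the positions used (those with 10 or more reads, or CpGs read in all samples), the window (500 bp, all starts of a gene, or the exon beyond 1000 bp) and each sample in turn. Replicates were compared by the chi-square of their counts per window, which was 1.66 to 16.6 on average, where independent reads of 1 library would give about 1. PCR copies raise this value as well, so it does not show how far the libraries are independent, and each was counted as 1 sample. Sequences of these genes are not reported here.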

Additional observations from a re-analysis of the deposited data

How the results depend on the processing

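The members called stayed at 0 in every comparison under limma, the other minimums of reads, the other windows and positions, fits of 6 samples and each sample left out. The exception was logistic regression, which ignores the spread between samples. The main edgeR fit also called 0% of all windows and first exons, and limma at most 1 first exon in a comparison. These counts of 0 are thus no result about the members. Shares over all units under the other settings are not given. For the genes' own windows logistic regression called 1 member in DBP + agent against DBP and 1 in DBP + BR extract against DBP. It also called 1 in DBP + BR extract against DMSO and 1 between the chemopreventive groups. For their first exons it called 2, 1, 2, 1 and 4 members in every comparison but DBP against DMSO. The share of all gene starts that it called is not given. Over all starts it called 4.04 to 55.4% of windows and 3.63 to 49.8% of first exons, depending on the comparison. With every start as a unit, an alternative chosen after seeing the data, it called 1, 1, 2, 1, 2 and 4 windows and 1, 3, 6, 4, 3 and 12 first exons in the order of the comparisons in the report, where the shares over all units stand beside them. It passed 16 of the 24 differences named by p, and those differences changed sign in 5 of 458 recalculations.

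Deviations from the group means correlated between -0.0307 and 0.177 for the 18 pairs with the same sample number, with a mean of 0.0216. For the 36 pairs with other numbers they correlated between -0.151 and 0.0889, with a mean of -0.0108. The ranges overlapped, and whether the numbers pair the samples was not tested. With the replicate block, 0 members were called, as without it, and the share over all units with the block is not given.

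Single CpG calls in DBP + agent against DBP, DBP + BR extract against DBP, DBP + agent against DMSO, DBP + BR extract against DMSO and DBP + BR extract against DBP + agent rose to 8, 13, 7, 11 and 31 at a difference over 10 points, were 8, 3, 4, 5 and 8 at a minimum of 5 reads and were 0 in edgeR. Calls over all CpGs rose too. Over 10 points they were 6902 of 127381, 8980 of 104443, 4460 of 63221, 4752 of 42861 and 23152 of 205096 in that order. The member CpGs tested there were 91, 79, 56, 45 and 171. At 5 reads they were 3945 of 261621, 3663 of 226138, 2426 of 144720, 2266 of 114413 and 8042 of 358869. The member CpGs tested there were 187, 168, 124, 104 and 247. Leaving out each sample in turn gave 2 to 7, 2 to 6, 1 to 5, 0 to 5 and 7 to 13 member CpGs, the 0 without DMSO sample 2, and 0 in DBP against DMSO. Over all CpGs it gave 1239 to 2221, 1663 to 2286, 712 to 1606, 773 to 1311 and 5177 to 8523, and 8 to 74 in DBP against DMSO.

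Levels moved with the starts that entered. The alpha windows averaged 26.5% at a minimum of 10 reads. The alpha first exons averaged 35.3% with reads pooled, 52.6% at 10 reads and 66.3% with the gene start alone, an alternative chosen after seeing the data. The beta first exons averaged 77.3% at 50 reads. The gamma first exons averaged 36% over CpGs read in all samples, 41.4% at 50 reads and 49.4% with the gene start alone, and the gamma windows 36.7% at 50 reads and 46.5% with the gene start alone. Leaving out each sample gave 46.8 to 52.5% for alpha first exons (the highest without DMSO sample 3), 12.8 to 26.7% for alpha windows (the highest without DBP + BR extract sample 1), 71.9 to 72.8% and 58.4 to 61.0% for beta and 38.0 to 38.5% and 30.7 to 32.0% for gamma. No value could be had for beta windows at 50 reads or 500 bp, nor for alpha windows with the gene start alone.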
